A study of Mus musculus with 8 samples.

Results

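The 9 genes described here encode the pumps and exchangers that clear calcium from the cytosol: the plasma membrane calcium ATPases Atp2b1, Atp2b2, Atp2b3 and Atp2b4, the endoplasmic reticulum calcium ATPases Atp2a2 and Atp2a3, and the sodium-calcium exchangers Slc8a1, Slc8a2 and Slc8a3. They were taken by name from a fixed list, matched in the authors' normalized table and joined by gene identifier to the count files, so that they are 9 of the 48823 genes in those files. All 9 passed the filter on low counts, as did 16990 genes in all. The tissue was the utricle, a balance organ of the vestibular system that senses linear acceleration, with 4 libraries from Rest(+/deltaExon4) mouse embryos, in which 1 copy of Rest lacks exon 4, and 4 libraries from wild-type embryos. Each library was made from RNA of 7 to 9 pooled mice, so the spread between libraries is that between pools, and whether pools came from separate litters is not stated. The label of strain is C57BL/6 and that of age E15.5 for every library except wild-type replicate 4, which is labelled C57BL/7 and E15.6. No treatment is labelled for either group.

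The transcriptional repressor REST keeps neuronal genes off in other cell types, and inclusion of its alternative exon 4 gives a truncated protein. Plasma membrane pumps expel calcium with ATP, sodium-calcium exchangers expel it in exchange for sodium, and the endoplasmic reticulum pumps refill the internal store. In hair cells, calcium enters through the mechanotransduction channels of the hair bundle and through channels at the synapse. The pump encoded by Atp2b2 is abundant in the membrane of the bundle, and mice with Atp2b2 mutations, such as deafwaddler, are deaf and unsteady.

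Each Rest(+/deltaExon4) library held 22.4 to 24.6 M gene-assigned read pairs, and each wild-type library 20.4 to 23.8 M. Inner ear tissue was checked on markers, which do not tell the utricle from other inner ear organs. The otoconial gene Oc90 and the hair cell genes Pou4f3 and Myo6 were detected in every library, with Pou4f3 at 98.8 to 121 CPM (counts scaled to the library's TMM-adjusted depth) in Rest(+/deltaExon4) libraries and 99.4 to 126 CPM in wild-type libraries. Rest itself was at 127 ± 3.20 CPM in Rest(+/deltaExon4) libraries and 116.5 ± 7.35 CPM in wild-type utricles (± SD, n = 4 per genotype). Its libraries did not overlap, and the adjusted p was 0.456 by edgeR's quasi-likelihood test. Gene counts do not show exon use and so do not check the deletion. Wild-type replicate 4 stood apart in red cell genes, with 6324 CPM summed over 6 erythroid markers where the remaining wild-type pools had 494 to 591 CPM and the Rest(+/deltaExon4) pools 502 to 767 CPM.

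Of the 9 genes, Atp2b2 and Atp2a3 fell in the Rest(+/deltaExon4) utricles, none rose, and 7 did not pass the threshold of an adjusted p of 0.05. Atp2b2 was lower by 2.57-fold and Atp2a3 by 3.73-fold. Over all 16990 genes tested, 1.02% were lower and 0.147% were higher at this threshold, 1.17% in either direction. The same 2 genes were the ones whose libraries did not overlap between genotypes, a pattern that 4.89% of all genes tested showed in the lower direction and 2.98% in the higher direction. DESeq2 also called Atp2b2 and Atp2a3 lower and no member higher, where it called 2.43% of all genes lower and 0.904% higher. No member had an unadjusted p under 0.05 in the higher direction. The median log2 fold change of the 9 genes was -0.35, against -0.0027 for all genes tested. In a bulk sample, fewer cells of a type and less RNA per cell cannot be told apart.

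**Figure D1:**
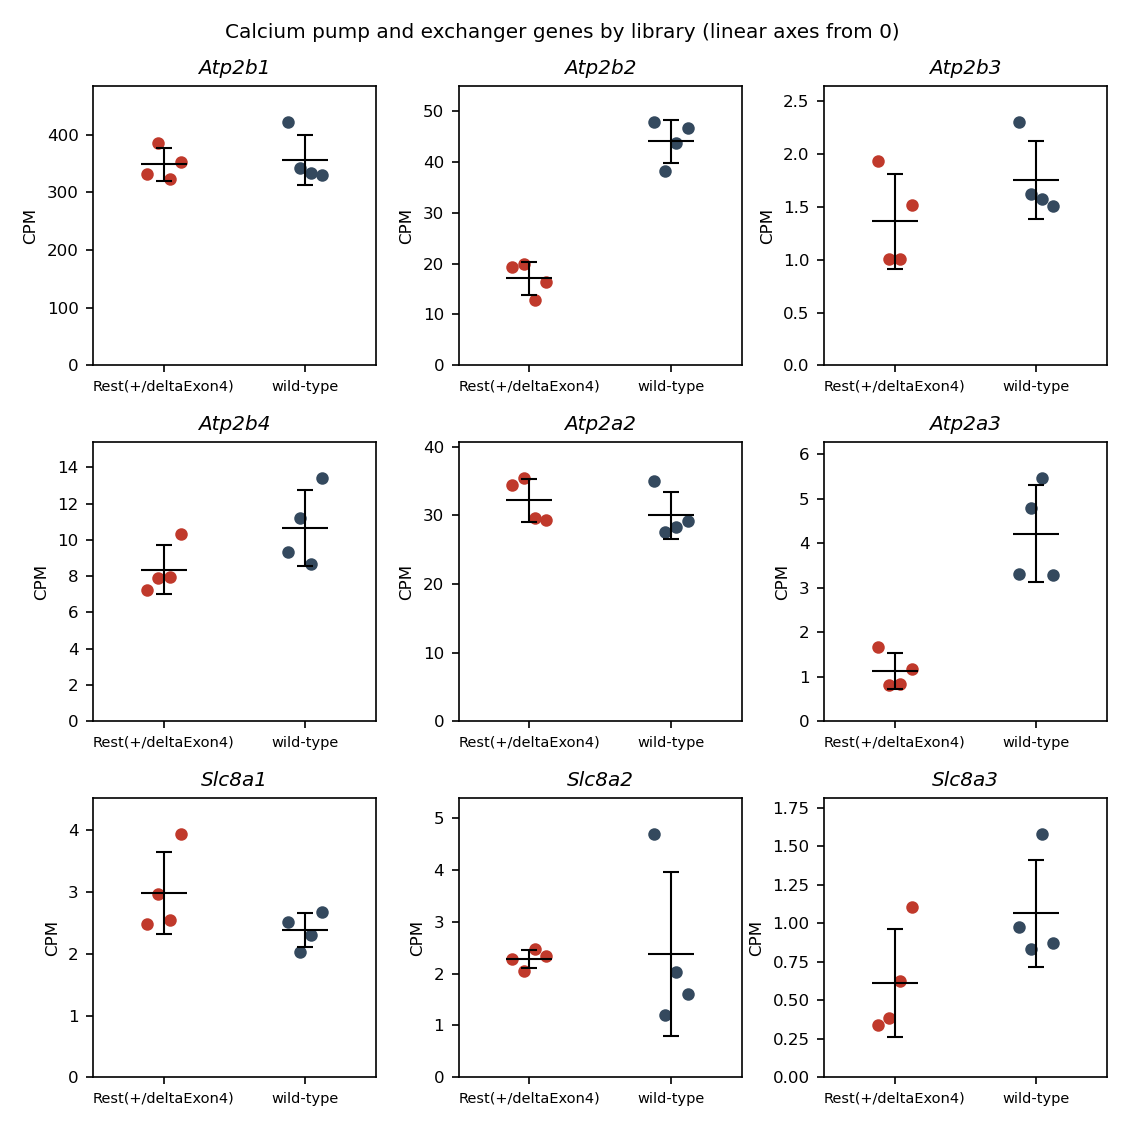
CPM of each gene in each library (1 point per library, replicates 1 to 4 from left to right within a group), with Rest(+/deltaExon4) in red on the left and wild-type in dark blue on the right; bars are mean and SD (n = 4). Atp2b2 and Atp2a3 separate the genotypes, while the points of the other 7 genes overlap.

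Atp2b2 (chromosome 6, 113743831 to 114042613, minus strand, GRCm38), the pump of the hair bundle, was at 19.4, 19.9, 12.9 and 16.4 CPM in Rest(+/deltaExon4) libraries and at 47.7, 38.2, 43.7 and 46.6 CPM in wild-type libraries. The highest Rest(+/deltaExon4) library lay well under the lowest wild-type library. The mean was 17.1 ± 3.22 CPM in Rest(+/deltaExon4) and 44.0 ± 4.22 CPM in wild-type utricles (SD, n = 4 each), a log2 fold change of -1.36 ± 0.14 (SE) with a 95% interval from -1.67 to -1.05 and an adjusted p of 0.000775 by edgeR's test with Benjamini-Hochberg adjustment. These values rest on 309 to 452 read pairs in Rest(+/deltaExon4) libraries and 828 to 1122 in wild-type libraries. No exon base of Atp2b2 is shared with another annotated gene.

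Atp2a3 (chromosome 11, 72961169 to 72993044, plus strand), a calcium pump of the endoplasmic reticulum known from blood, endothelial and secretory cells, was at 1.67, 0.813, 0.835 and 1.19 CPM in Rest(+/deltaExon4) libraries and at 3.32, 4.80, 5.46 and 3.30 CPM in wild-type libraries. The groups did not overlap. The mean was 1.13 ± 0.402 CPM in Rest(+/deltaExon4) and 4.22 ± 1.09 CPM in wild-type utricles (SD, n = 4 each), a log2 fold change of -1.90 ± 0.30 (SE) with a 95% interval from -2.56 to -1.24 and an adjusted p of 0.0116. It is a weakly expressed gene, with 17 to 39 read pairs in Rest(+/deltaExon4) libraries and 68 to 135 in wild-type libraries. The call held in each of the 8 fits that leave out 1 library, with adjusted p from 0.011 to 0.0434, the highest without wild-type replicate 3. Without the blood-rich wild-type replicate 4 the log2 fold change was -1.998 and the adjusted p 0.0182. Marker sums of macrophages and endothelial cells overlapped between genotypes. The 6 macrophage markers summed to 92.9 to 169 CPM in Rest(+/deltaExon4) and 111 to 147 CPM in wild-type libraries. The 5 endothelial markers summed to 127 to 141 CPM in Rest(+/deltaExon4) and 123 to 145 CPM in wild-type libraries. No list of secretory cell markers was read, and the part of any cell type in the fall of Atp2a3 was not tested.

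The starts of the genes that fell are shown because REST acts through a DNA element, RE1, made of a left block with the letters AGCACC and a right block with the letters GGACAG. Each window runs from 250 bases before to 50 bases after an annotated start, is read along the strand of the gene and comes from RefSeq on GRCm38.p6. Capitals mark matches to either block on either strand.
Atp2b2, chr6:114042031-114042330: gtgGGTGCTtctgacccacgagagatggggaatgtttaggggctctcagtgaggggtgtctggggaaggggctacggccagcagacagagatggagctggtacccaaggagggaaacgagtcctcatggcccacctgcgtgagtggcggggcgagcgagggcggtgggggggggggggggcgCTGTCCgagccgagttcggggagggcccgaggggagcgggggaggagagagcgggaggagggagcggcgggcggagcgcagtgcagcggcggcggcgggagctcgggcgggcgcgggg
Atp2b2, chr6:113934632-113934931: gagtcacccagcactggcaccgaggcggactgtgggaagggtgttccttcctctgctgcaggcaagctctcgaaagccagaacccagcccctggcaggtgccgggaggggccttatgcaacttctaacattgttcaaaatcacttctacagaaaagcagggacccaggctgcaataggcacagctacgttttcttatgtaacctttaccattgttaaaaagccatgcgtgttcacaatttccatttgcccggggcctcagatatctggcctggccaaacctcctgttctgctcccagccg
Atp2b2, chr6:113891490-113891789: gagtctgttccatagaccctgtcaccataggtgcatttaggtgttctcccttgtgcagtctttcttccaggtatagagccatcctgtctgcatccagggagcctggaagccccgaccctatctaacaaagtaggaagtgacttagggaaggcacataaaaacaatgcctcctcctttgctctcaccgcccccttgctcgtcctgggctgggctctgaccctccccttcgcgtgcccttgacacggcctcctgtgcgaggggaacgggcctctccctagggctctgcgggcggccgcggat
Atp2a3, chr11:72960919-72961218: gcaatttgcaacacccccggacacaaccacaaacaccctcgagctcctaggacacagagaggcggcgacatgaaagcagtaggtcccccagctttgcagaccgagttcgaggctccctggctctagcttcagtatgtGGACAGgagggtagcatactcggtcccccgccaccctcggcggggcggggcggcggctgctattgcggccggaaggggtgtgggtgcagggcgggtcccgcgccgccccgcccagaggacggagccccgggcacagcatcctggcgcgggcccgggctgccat

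The outermost Atp2b2 window holds 1 match to each block, far apart from each other, and the other 2 Atp2b2 windows hold none. The Atp2a3 window holds 1 match to the right block. Windows were listed for 7 of the 9 genes, 10 windows in all, of which 1 held the left block and 4 the right block, among them the windows of Slc8a1 and Slc8a2, which did not pass the threshold. Of all 32851 windows of 300 bases, 16.2% held the left block and 22.2% the right block. The RE1 consensus over both blocks was in none of the 10 windows and in 0.0639% of all windows. A match is a description of letters, and elements outside these windows were not searched.

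Among the other plasma membrane pumps, Atp2b1 (chromosome 10, 98914406 to 99026143, plus strand), the pump found in most cell types, was the most highly expressed of the 9 genes. It was at 331, 386, 322 and 353 CPM in Rest(+/deltaExon4) libraries and at 421, 342, 333 and 330 CPM in wild-type libraries. The groups overlapped, the log2 fold change was -0.03 and its 95% interval ran from -0.25 to 0.18, so a change as large as that of Atp2b2 lies outside it. Within each library, Atp2b2 stood at 0.0585, 0.0515, 0.04 and 0.0463 of the Atp2b1 CPM in Rest(+/deltaExon4) libraries and at 0.113, 0.112, 0.131 and 0.141 in wild-type libraries. This ratio, chosen after the values were seen, does not depend on library scaling and was 2.55-fold lower in Rest(+/deltaExon4) libraries (exact two-sided permutation p = 0.0286, the smallest that 70 assignments allow). Atp2b2 alone already separated the genotypes, so this p adds nothing to that separation.

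Atp2b4 (chromosome 1, 133699457 to 133801041, minus strand), a pump known from sperm and, in humans, from red cells, though not only from these, was at 7.24, 7.89, 7.93 and 10.3 CPM in Rest(+/deltaExon4) libraries and at 9.35, 11.2, 8.69 and 13.4 CPM in wild-type libraries. Its log2 fold change of -0.35 ± 0.17 (SE) did not pass (edgeR adjusted p = 0.413, 95% interval from -0.73 to 0.03). The highest value was in the blood-rich wild-type replicate 4, and without that library the log2 fold change was -0.22. Whether red cell RNA bears on it was not tested. Atp2b3 (chromosome X, 73503086 to 73571005, plus strand), known mainly from brain, was near the detection limit, at 1.002 to 1.93 CPM in Rest(+/deltaExon4) libraries and 1.503 to 2.30 CPM in wild-type libraries (edgeR adjusted p = 0.637, 95% interval of the log2 fold change from -1.02 to 0.31).

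Atp2a2 (chromosome 5, 122453513 to 122502225, minus strand), the endoplasmic reticulum pump of most cells and of heart, was at 34.4, 35.4, 29.7 and 29.3 CPM in Rest(+/deltaExon4) libraries and at 35.0, 27.5, 28.3 and 29.2 CPM in wild-type libraries. The groups overlapped, with a log2 fold change of 0.10 ± 0.11 (SE, edgeR adjusted p = 0.727, 95% interval from -0.14 to 0.34). The ratio of Atp2a3 to Atp2a2 within a library was 0.0351 ± 0.0117 in Rest(+/deltaExon4) and 0.144 ± 0.0475 in wild-type libraries (SD, n = 4 each). It did not overlap between genotypes (exact two-sided permutation p = 0.0286, also chosen after the values were seen). Atp2a3 alone already separated the genotypes, so this p adds nothing to that separation either.

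The sodium-calcium exchangers were low throughout, and none passed the threshold. Slc8a1 (chromosome 17, 81373105 to 81738377, minus strand), the exchanger of heart and many other tissues, was at 2.49, 2.96, 2.55 and 3.93 CPM in Rest(+/deltaExon4) libraries and at 2.51, 2.03, 2.31 and 2.67 CPM in wild-type libraries (log2 fold change 0.33 ± 0.22, SE, edgeR adjusted p = 0.558, and 0.17 without Rest(+/deltaExon4) replicate 4). Slc8a2 (chromosome 7, 16129826 to 16161063, plus strand), an exchanger of brain, was at 2.06 to 2.46 CPM in Rest(+/deltaExon4) libraries and at 4.68, 1.20, 2.02 and 1.6 CPM in wild-type libraries. Wild-type replicate 1 alone was above all Rest(+/deltaExon4) libraries, and without it the log2 fold change was 0.51 in place of -0.06, neither past the threshold (edgeR adjusted p = 0.569 and 0.963). Slc8a3 (chromosome 12, 81197915 to 81333180, minus strand), an exchanger of brain and skeletal muscle, was at 0.343, 0.382, 0.626 and 1.11 CPM in Rest(+/deltaExon4) libraries and at 0.978, 0.831, 1.58 and 0.873 CPM in wild-type libraries. With 8 to 27 read pairs in Rest(+/deltaExon4) and 18 to 39 in wild-type libraries, the 95% interval of its log2 fold change spans -1.72 to 0.15 (edgeR adjusted p = 0.454), and a fall as large as that of Atp2b2 lies within it. Without Rest(+/deltaExon4) replicate 4 its log2 fold change was -1.23.

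**Figure D2:**
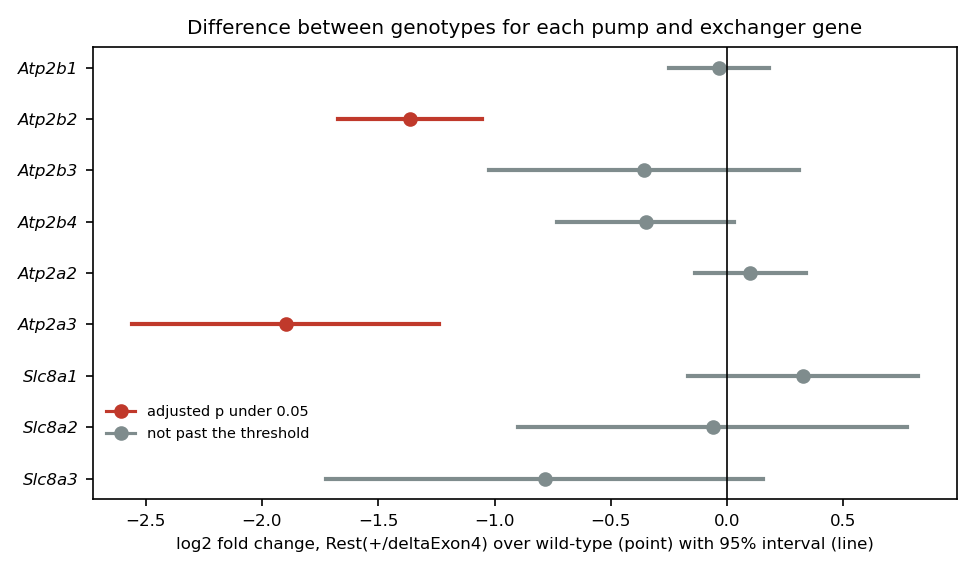
Log2 fold change of Rest(+/deltaExon4) over wild-type for each gene (points) with its 95% interval from edgeR's quasi-likelihood fit (lines, n = 4 libraries per genotype); red marks an adjusted p under 0.05. The intervals of Atp2b2 (-1.67 to -1.05) and Atp2a3 (-2.56 to -1.24) lie left of 0, and those of the other 7 genes cross it.

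Levels were compared between genes as CPM per kb of annotated exons. In wild-type libraries the order was Atp2b1 (23.4 ± 2.86 CPM per kb), Atp2a2 (4.94 ± 0.562), Atp2b2 (3.49 ± 0.335), Atp2b4 (0.870 ± 0.172), Atp2a3 (0.799 ± 0.206), Slc8a2, Atp2b3, Slc8a3 and Slc8a1 (0.126 ± 0.0146, all SD, n = 4). On this length the libraries of each of the first 3 genes did not overlap those of the next in order, while per kb of the longest transcript those of Atp2a2 and Atp2b2 overlapped and Atp2b1 was at 49.98 ± 6.10 CPM per kb. The neighbours Atp2b4 and Atp2a3, Atp2a3 and Slc8a2, and Slc8a2 and Atp2b3 overlapped. In Rest(+/deltaExon4) libraries Atp2b2 was at 1.36 ± 0.255 CPM per kb and again in place 3, while Atp2a3, at 0.213 ± 0.0761 CPM per kb, was in place 7 and overlapped both Atp2b3 and Slc8a1.

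Within the plasma membrane pumps, Atp2b2 made up 6.33%, 5.67%, 4.43% and 5.05% of the summed CPM per kb in Rest(+/deltaExon4) libraries and 11.6%, 11.3%, 13.1% and 13.8% in wild-type libraries. Atp2b1 made up 90.8% ± 0.987 in Rest(+/deltaExon4) and 83.1% ± 1.61 in wild-type libraries (SD, n = 4 each). The summed CPM of the plasma membrane pumps was 375 ± 30.7 CPM in Rest(+/deltaExon4) and 413 ± 45.2 CPM in wild-type utricles, and that of Atp2a2 and Atp2a3 together was 33.3 ± 3.27 CPM in Rest(+/deltaExon4) and 34.2 ± 2.81 CPM in wild-type utricles. These shares are descriptions of RNA over the whole organ and do not show which cells hold it.

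**Figure D3:**
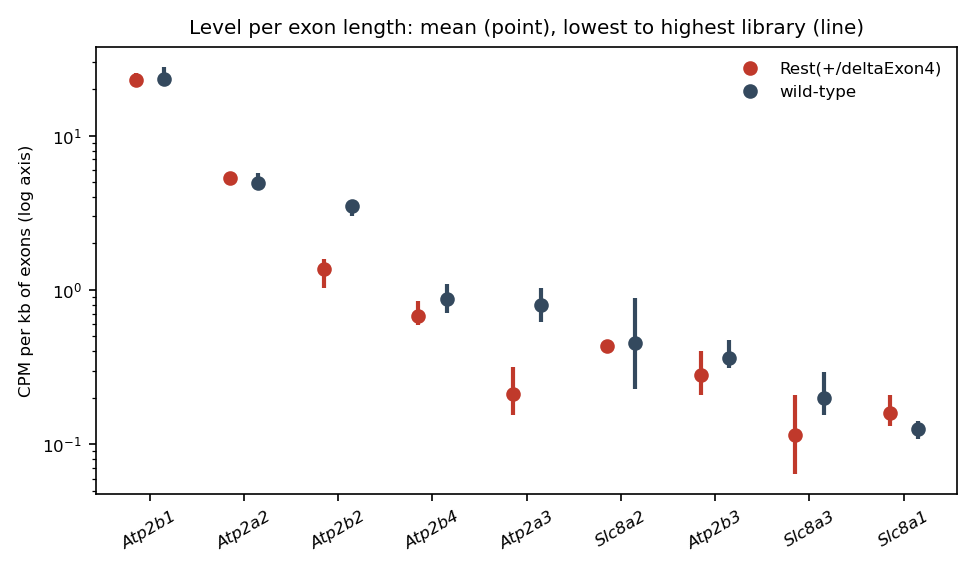
CPM per kb of exons on a log axis, for Rest(+/deltaExon4) (red, left of each pair) and wild-type (dark blue, right); points are means and lines run from the lowest to the highest of 4 libraries. Genes are ordered by wild-type mean, from Atp2b1 at 23.4 to Slc8a1 at 0.126 CPM per kb.

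Hair cell content was set beside the fall of Atp2b2. Of 14 hair cell markers 1 fell, Otof, a gene of transmitter release, and none rose. For comparison, edgeR's rate of calls among the 16990 genes was 1.02% for falls and 0.147% for rises. The markers went both ways: 5 did not overlap between genotypes, with Otof, Strc and Ocm lower and Pvalb and Calb2 higher. Of all genes tested, 4.89% did not overlap in the lower direction and 2.98% in the higher direction. Strc, Ocm, Pvalb and Calb2 were named after their values were seen, and none of them passed the threshold (lowest edgeR adjusted p = 0.0517, for Pvalb). Myo7a (log2 fold change -0.40) and Atoh1 (0.65, named likewise) overlapped and did not pass (edgeR adjusted p = 0.199 and 0.238). The summed CPM of the 14 was 803, 898, 752 and 739 in Rest(+/deltaExon4) libraries and 959, 841, 875 and 928 in wild-type libraries, which overlapped. Relative to the summed CPM of Pou4f3, Myo7a and Myo6, a transcription factor and 2 motor proteins of hair cells, Atp2b2 was at 0.0436, 0.036, 0.0317 and 0.0371 in Rest(+/deltaExon4) libraries and at 0.0848, 0.0816, 0.0906 and 0.0907 in wild-type libraries. The ratio was 2.36-fold lower in Rest(+/deltaExon4) libraries (p = 0.0286 by the exact two-sided permutation test, its minimum). Atp2b2 alone already separated the genotypes, and the reference genes were chosen with earlier results of these data known. This p therefore adds nothing to that separation. Whether hair cell content bears on the fall was not tested. The Atp2b2 ratio was 2.48-fold lower over Pou4f3 alone, 1.97-fold over Myo7a alone and 2.36-fold over Myo6 alone. Myo6 made up most of the summed reference. Over Otof, added after the values were seen, the ratio was 0.206 ± 0.0484 in Rest(+/deltaExon4) and 0.264 ± 0.0257 in wild-type utricles (SD, n = 4 each), the groups overlapped and the exact permutation p was 0.0571.

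Of 10 ganglion neuron markers 3 fell (Nefl, Nefm and Snap25) and none rose, where 1.02% of all genes tested were lower and 0.147% higher. The summed CPM of the 10 was 356 to 422 in Rest(+/deltaExon4) and 552 to 784 in wild-type libraries, without overlap. The highest value was in wild-type replicate 3. The sums of the other 7 markers overlapped, at 194 to 231.5 CPM in Rest(+/deltaExon4) and 189 to 303.5 CPM in wild-type libraries. These 7 are what remained after the genes called in the same data were taken out. Their overlap is therefore no test of neuron content. Isl1, a transcription factor of sensory neurons that made up most of the sum of the 7, was at 147 ± 13.4 CPM in Rest(+/deltaExon4) and 146 ± 12.6 CPM in wild-type utricles (SD, n = 4 each). It does not stand for the list, as the median log2 fold change of the 10 markers was -0.40. Without wild-type replicate 3 the log2 fold changes were -1.37 for Atp2b2 and -1.75 for Atp2a3. The part of the neuron genes in the falls of Atp2b2 and Atp2a3 was not tested. No marker of 6 further cell types passed, and their sums overlapped between genotypes. Those of supporting cells summed to 1747 to 2317 CPM in Rest(+/deltaExon4) and 1741 to 1996 CPM in wild-type libraries. Those of roof and otoconia summed to 1767 to 2832 CPM in Rest(+/deltaExon4) and 2163 to 2874 CPM in wild-type libraries. Those of dark cells summed to 137 to 155 CPM in Rest(+/deltaExon4) and 129 to 174 CPM in wild-type libraries. For mesenchyme the sum was 2972 to 3937 CPM in Rest(+/deltaExon4) and 3259 to 3636 CPM in wild-type libraries. For Schwann cells the sum was 215 to 306 CPM in Rest(+/deltaExon4) and 211 to 253 CPM in wild-type libraries. For melanocytes the sum was 43.1 to 57.1 CPM in Rest(+/deltaExon4) and 34.8 to 80.4 CPM in wild-type libraries. Skeletal muscle markers, relevant to Slc8a3, summed to 95.1 to 113 CPM in Rest(+/deltaExon4) and 69.1 to 124 CPM in wild-type libraries, with 1 of 9 higher (Myog). Cardiac markers, relevant to Slc8a1 and Atp2a2, summed to 7.85 to 13.6 CPM in Rest(+/deltaExon4) and 7.47 to 9.62 CPM in wild-type libraries, with none of 4 tested past the threshold in edgeR's test.

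**Figure D4:**
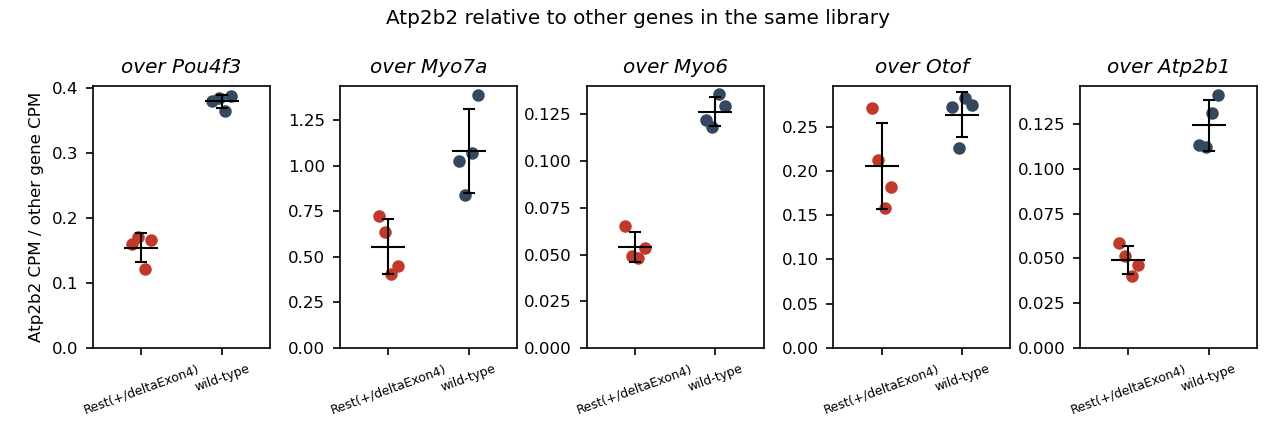
Atp2b2 CPM divided by the CPM of another gene in the same library (unitless, axes from 0), with Rest(+/deltaExon4) in red on the left and wild-type in dark blue on the right; bars are mean and SD (n = 4). The genotypes separate over Pou4f3, Myo7a, Myo6 and Atp2b1 and overlap over Otof.

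The wider machinery of calcium transport was read from 40 other genes grouped by role, of which 36 could be tested. By edgeR's test none fell and none rose, where 1.02% of all genes tested were lower and 0.147% higher. At those shares, the absence of calls among 36 genes does not set the list apart. The log2 fold changes of the 36 ran from -0.95 to 0.88, and their median of 0.0038 was close to the -0.0027 of all genes tested. Libraries did not overlap between genotypes for 2 lower and 3 higher genes, where 4.89% of all genes tested did so in the lower direction and 2.98% in the higher. At an unadjusted p under 0.05 there were 6 genes, 1 lower and 5 higher, where 7.92% of all genes tested were lower and 5.46% higher at that level. DESeq2, which called 411 genes lower (2.43%) and 153 higher (0.904%) in all, called 3 of the 36. These were Orai2, lower (log2 fold change -0.37), and Bsg and Calm3, higher (0.28 and 0.36), with DESeq2 adjusted p of 0.00909, 0.0375 and 0.00595. Bsg encodes a subunit of the plasma membrane pumps, Calm3 calmodulin, their activator, and Orai2 a channel of store-operated entry.

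Of 3 pumps outside the 9 genes, none passed: Atp2c1, the calcium pump of the Golgi, was at 52.2 ± 1.81 CPM in Rest(+/deltaExon4) and 52.4 ± 3.51 CPM in wild-type libraries, and Atp2a1, the pump of fast skeletal muscle, at 5.12 ± 1.79 CPM in Rest(+/deltaExon4) and 5.58 ± 1.49 CPM in wild-type utricles (SD, n = 4 each). Of 7 subunits and regulators tested, none passed, with the calmodulin gene Calm2 at 677 ± 14.6 CPM in Rest(+/deltaExon4) and 751 ± 38.5 CPM in wild-type utricles. Of 4 potassium-dependent and mitochondrial exchangers tested, none passed, with Slc8b1 of mitochondria at 14.6 ± 1.97 CPM in Rest(+/deltaExon4) and 15.2 ± 1.28 CPM in wild-type utricles and Slc24a5 of melanocytes at 5.71 ± 0.998 CPM in Rest(+/deltaExon4) and 6.54 ± 1.22 CPM in wild-type utricles.

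None of 6 store release channels passed. Itpr1 and Itpr2, which open on inositol trisphosphate, were at 17.0 ± 2.19 CPM in Rest(+/deltaExon4) and 18.2 ± 1.79 CPM in wild-type utricles, for Itpr1, and 16.3 ± 4.26 CPM in Rest(+/deltaExon4) and 17.4 ± 4.26 CPM in wild-type utricles, for Itpr2. Among 5 genes of store-operated entry, the store sensor Stim1 was at 31.2 ± 3.18 CPM in Rest(+/deltaExon4) and 33.2 ± 2.19 CPM in wild-type libraries. Its relative Stim2 was at 142 ± 53.7 CPM in Rest(+/deltaExon4) and 77.0 ± 58.8 CPM in wild-type utricles, a spread within each genotype nearly as large as the difference (log2 fold change 0.88 ± 0.53, SE, edgeR adjusted p = 0.495). Without wild-type replicate 1 its log2 fold change was 0.56, and without wild-type replicate 4 it was 1.31. Of 6 genes of the mitochondrial uniporter none passed, with the pore gene Mcu at 228 ± 20.4 CPM in Rest(+/deltaExon4) and 214 ± 13.7 CPM in wild-type utricles and its regulator Micu3 at 203 ± 45.0 CPM in Rest(+/deltaExon4) and 203 ± 15.8 CPM in wild-type utricles. Of 5 calcium binders and chaperones of the endoplasmic reticulum none passed, with Hspa5 at 1602 ± 170.4 CPM in Rest(+/deltaExon4) and 1434 ± 146 CPM in wild-type utricles and Canx at 1267 ± 268 CPM in Rest(+/deltaExon4) and 1005 ± 46.7 CPM in wild-type utricles (SD, n = 4 each).

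**Figure D5:**
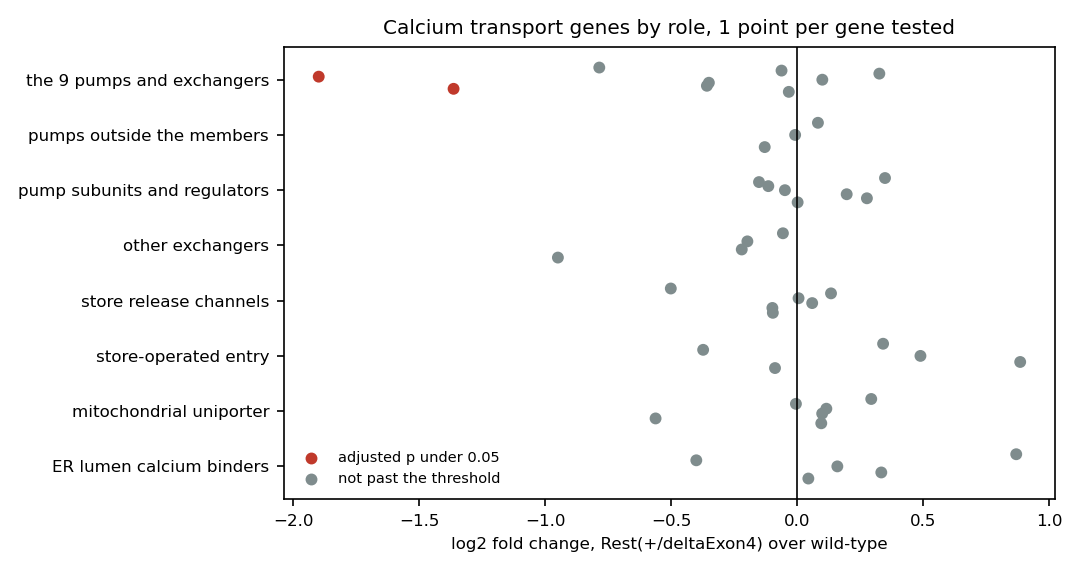
Log2 fold change of Rest(+/deltaExon4) over wild-type for the 9 pumps and exchangers (top row) and 36 other calcium transport genes by role, 1 point per gene; red marks an adjusted p under 0.05 by edgeR's test. The 2 red points, Atp2a3 at -1.90 and Atp2b2 at -1.36, lie left of all the others.

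The genes whose profile over the 8 libraries was most like that of Atp2b2 were named by the smallest root mean square difference of centred log2 CPM, among 12600 protein-coding genes with a mean of at least 2 CPM. They were Agbl4, a tubulin-modifying carboxypeptidase (difference 0.15), Kncn, the hair cell gene kinocilin (0.18), Trim36 (0.18), the neurofilament gene Nefm (0.22) and Ap3b2, a neuronal adaptor subunit (0.22). Kncn was at 20.4 ± 2.22 CPM in Rest(+/deltaExon4) and 60.5 ± 4.46 CPM in wild-type utricles (± SD, n = 4 per genotype). For Atp2a3 they were the acid-sensing channel gene Asic3 (0.29), Rtp1 (0.34), Kncn (0.38), the Notch ligand gene Dner (0.39) and Rundc3a (0.43). All of these differ between the genotypes in the same direction, which this measure of likeness selects for.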

How the data were processed

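STAR 2.5.2a and the build GRCm38.p4 are named in the submitters' processing notes, as is DESeq2. The authors deposited whole-number counts of read pairs per gene for 8 libraries. They also deposited a signal, counts divided by a size factor per library, for 7 libraries (without wild-type replicate 4) and 21369 genes. That signal became whole reads in 100% of values (tolerance 0.001) and gave the symbols of the members. The 2 strand columns were nearly equal, so the unstranded column was used, and reads of antisense partners are not separated. Read pairs assigned to no gene made up 25.2% to 29.97% in Rest(+/deltaExon4) and 30.08% to 33.9% in wild-type libraries, without overlap. Genes with any read pair numbered 23408 to 23989 in Rest(+/deltaExon4) and 24265 to 24687 in wild-type libraries, also without overlap. Whether these differences between the libraries bear on the calls was not tested.

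Genes were kept by filterByExpr (minimum count 10, minimum total 15). Genotypes were compared with edgeR 4.0.16 (R 4.3.3), TMM factors, the quasi-likelihood test and Benjamini-Hochberg adjustment over all 16990 genes tested. The SE is the log2 fold change divided by the square root of F. Depth was 20.4 to 24.6 M read pairs on genes, and counting error limits genes with few. Coordinates and exon lengths came from GENCODE M21 (GRCm38), which held 48349 of 48823 identifiers. Ratios used exact two-sided permutation tests over 70 assignments (smallest p 0.0286). The fit was tested on simulated data. Alternatives were other scalings, no filter, DESeq2 1.42.0, a replicate block, the strand column, the authors' 7 libraries and leaving out each library.

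The members and gene lists were chosen with earlier results of these data known. Named were the 9 members, Rest, the called and the 2 most highly expressed calcium transport genes per role, and the 5 genes most like each called member. The values of 1 gene that this rule names are not reported here. Marker lists are given by sums, counts and called genes. Orai2, Bsg and Calm3 were named after their values were seen.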

Additional observations from a re-analysis of the deposited data

Results flagged for a closer look

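Of 24 groups of 4 libraries checked (9 genes and 3 ratios, each in both genotypes), 2 held a library far from the rest, where chance flags about 1 group in 20. Both concern wild-type replicate 1: Atp2b1 was at 421 CPM there, with 330 to 342 CPM in the remaining 3 wild-type pools, and Atp2b3 at 2.30 CPM, with 1.503 to 1.62 CPM in the remaining 3. Without that library the log2 fold changes were 0.07 for Atp2b1 and -0.19 for Atp2b3, neither past the threshold (edgeR adjusted p = 0.825 and 0.874).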

How the results depend on the processing

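Atp2b2 stayed lower and past the threshold under all 15 alternatives to the edgeR fit (log2 fold change from -1.43 to -1.25, adjusted p up to 0.00829), and Atp2a3 under 14 (from -2.15 to -1.75). With the replicate block the members called lower were 1 (Atp2a3 -1.90, adjusted p = 0.0815), and over all genes the calls were 80 lower and 16 higher. The numbers do not pair the libraries: deviations of same-numbered libraries correlated at -0.0983 to 0.0322 across genes, not every library correlated best with its own number, and Slc8a2 became 0.12 under the block. DESeq2 called 411 lower and 153 higher genes, against 173 and 25 by edgeR, and 1 lower and 2 higher other calcium transport genes, against 0. The authors' 7 libraries and genes gave 107 lower. Leaving out single libraries gave 105 to 140 lower and 12 to 28 higher genes, and always 2 members lower.

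Genes near no difference changed sign without passing the threshold. Leaving out single libraries gave -0.0735 to 0.068 for Atp2b1, -0.27 to 0.51 for Slc8a2, -0.35 to 0.0227 for Atp2a1, -0.0383 to 0.0485 for Atp2c1, -0.12 to 0.0171 for Slc8b1, -0.27 to 0.0969 for Itpr2 and -0.13 to 0.0983 for Micu3. Without the filter Atp2c1 was at 0.0137 and Micu3 at 0.0159. With the strand column Atp2c1 was at 0.0298, Slc24a5 at 0.053 and Micu3 at 0.0171. Micu3 was at 0.00056 with DESeq2 size factors, 0.00061 by DESeq2 and 0.0123 in the authors' 7 libraries. The Atp2b2 ratio to hair cell genes was -1.24 on the log2 scale and -1.32 to -1.16 without single libraries, where the exact test cannot go below 0.0571, and -0.38 over Otof alone, a reference chosen after seeing the data. With transcript length in place of exon length 7 of 9 genes kept their place in the order of levels, Atp2a3 and Atp2b4 changed places, and the wild-type libraries of Atp2a2 and Atp2b2 overlapped.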
